A study of Mus musculus with 18 samples.

Results

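Thap1 and Bmf are 2 genes linked to programmed cell death, followed here across every array of a mouse jejunum study. They were taken by name from the authors' deposited table, which names 51 genes, and each was read through its feature number from a deposited intensity table of 6914 features. The authors' table lists genes by their fold against the control mice of this same series. Comparisons with those controls are therefore not independent of how the 2 genes came to be named. Thap1 is feature 28176 (Agilent probe A_52_P189132) and Bmf is feature 2939 (probe A_55_P2029106), and the RefSeq transcript listed for each probe matched the same symbol in the GRCm38.p6 gene table. Both have a value on every array, as do 5021 features in all.

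The samples are enterocytes, the absorptive lining cells of the gut, scraped from the jejunum. The animals were BALB/cOlaHsd males, aged 8 weeks when gavage began. Each of 6 groups has 3 mice, each with its own Cy3-labelled Agilent array, drawn from 12 mice per group after 20 days of daily gavage beside standard chow. ADI mice were gavaged with 9 pesticides in mixture at the acceptable daily intake. PC mice received 30 mg per day of flour, with skin, from conventionally grown potatoes, PO mice the same amount from organically grown potatoes, PCS mice from conventional potatoes under storage conditions and POS mice from organic potatoes under storage conditions. Ctr mice were gavaged with water. POS mouse 3 is labelled day 27, after 7 days of resilience, and all other mice day 20. Scraped tissue is not a pure cell type, and in such bulk RNA fewer cells of a type and less RNA per cell cannot be told apart.

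THAP1 is a zinc finger transcription factor that binds DNA through its THAP domain and regulates genes of the cell cycle. It was described as a nuclear protein that can promote apoptosis, and mutations of the human gene cause a form of dystonia. BMF is a BH3-only protein of the BCL-2 family. It is held at the cytoskeleton through dynein light chain, and when released it binds pro-survival BCL-2 proteins, which favours the mitochondrial route of apoptosis. Enterocytes are short-lived cells that are shed from the villus and replaced from the crypt, and both detachment and apoptosis are part of that turnover.

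The 2 genes had very similar values from array to array, so the promoter of Bmf was searched for the core motif that THAP1 is known to recognise, written here as TNNNGGCA. RefSeq gives 3 promoter windows for Bmf in GRCm38.p6, each from 250 bases before to 50 bases after a transcript start. The window of the outermost start, chr2:118549637-118549936 on the minus strand, holds the only match among the 3, on the strand opposite to the gene, and is printed with that match in capitals.
Bmf: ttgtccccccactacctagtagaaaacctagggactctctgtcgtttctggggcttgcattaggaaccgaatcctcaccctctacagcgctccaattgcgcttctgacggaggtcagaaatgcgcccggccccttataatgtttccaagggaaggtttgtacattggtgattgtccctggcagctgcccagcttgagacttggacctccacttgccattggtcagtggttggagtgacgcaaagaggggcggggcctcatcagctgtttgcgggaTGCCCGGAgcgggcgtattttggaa
Both strands were searched, and 42% of 32841 promoter windows of the same length hold at least 1 match. A match is therefore common and describes only these letters.

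Array brightness differed widely and bears on every value that follows. The median intensity over the 5021 features ran from 37 to 250 in ADI mice, from 45 to 103 in PC, from 5 to 370 in PO, from 89 to 507 in PCS, from 61 to 309 in POS, and from 168 to 256 in Ctr mice. PO array 2 stood apart, with 84.2% of its values under 16 and a Spearman correlation across features with the remaining arrays of 0.365 at the median, where every other array had at least 0.87. A further 1893 features with a blank cell were left out, since the brightness of several columns differs there (PO array 2 has a median of 951 on them), so that the array behind each value is uncertain. Values are therefore given as log2 of the deposited intensity and, where named so, as centred values, the log2 intensity minus the log2 median of the same array. Of 56 cell type markers on a chosen list, the files name 2: Apoa1, an apolipoprotein that enterocytes secrete, and Cd2, an adhesion gene of T cells. Apoa1 was at least 5.30 above the array median (log2) on every array of exposed mice but PO array 2, where it was 1.68 above, and 6.12 to 6.47 above it in Ctr mice. Cd2 was 0.98 to 4.96 above the median in exposed mice and 1.27 to 1.92 in Ctr mice.

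**Figure D1:**
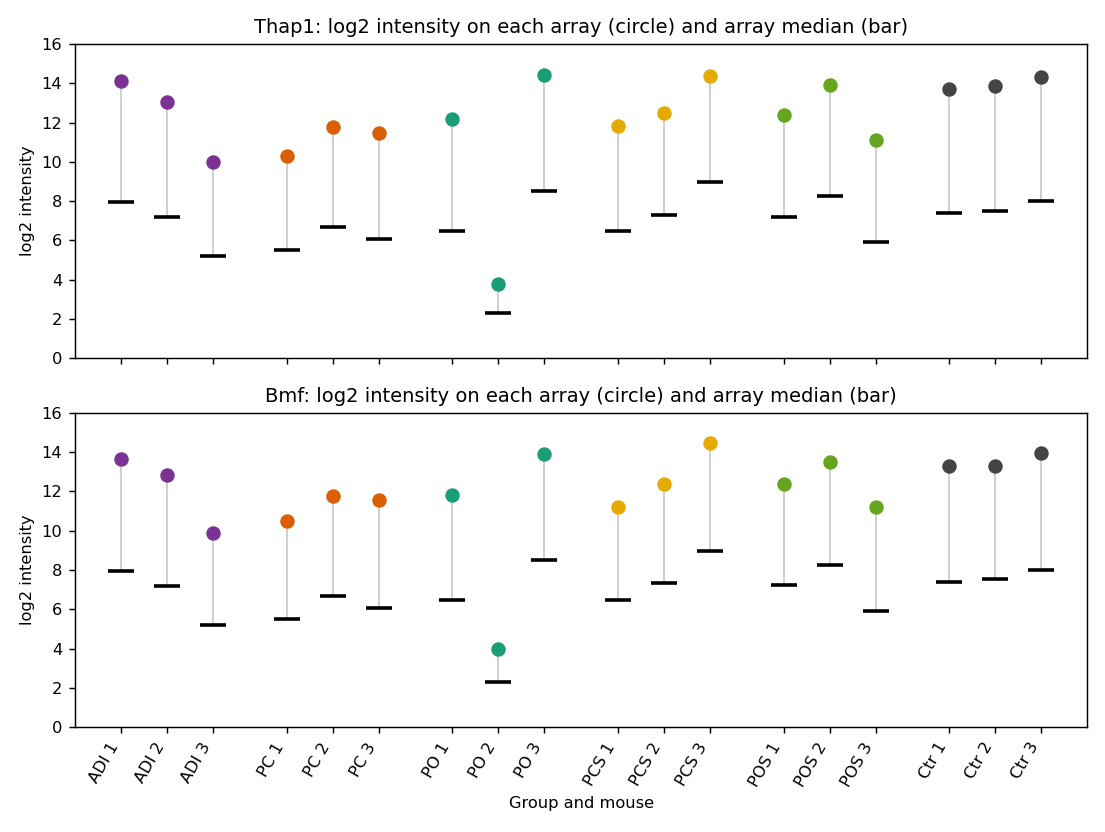
Log2 intensity of Thap1 (top) and Bmf (bottom) on each of the 18 arrays (circles), with the median of all 5021 features on that array (bars). On PO array 2 both genes and the median are far below all other arrays, and the circles move with the bars.

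Thap1 intensities were lower in PC mice than in Ctr mice without overlap. They were 1260, 3470 and 2852 in the 3 PC mice, against 13532, 14696 and 20488 in the 3 Ctr mice. In ADI mice they were 17533, 8555 and 1004, so that ADI mouse 1 lay within the Ctr range and ADI mouse 3 far below it. PO mice had 4665, 14 and 22324, the widest spread of any group. PCS mice had 3654, 5843 and 21443, and POS mice 5349, 15407 and 2193, the last from the mouse labelled day 27. In PO, PCS and POS mice 1 array each reached the Ctr range or passed it, so only the PC group was separate from Ctr as deposited.

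Within each exposed group, Bmf ranked the 3 arrays in the same order as Thap1. Its intensities were 1457, 3484 and 2970 in PC mice, against 10129, 10058 and 15870 in Ctr mice. ADI mice had 12923, 7414 and 956. The values were 3629, 16 and 15568 in PO mice, 2396, 5299 and 22245 in PCS mice, and 5294, 11338 and 2369 in POS mice. As for Thap1, the lowest value was that of PO array 2, and PC was the only group whose 3 arrays all lay below the Ctr arrays. Among all 5021 features, 71.3% had all 3 PC arrays below the Ctr arrays, against 3.8% for ADI, 7.79% for PO, 0.139% for PCS and 4.12% for POS, so this separation in PC mice was shared by most features.

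Both genes tracked the brightness of the array. Across the 18 arrays, log2 Thap1 and the log2 array median had a Pearson r of 0.97 and a Spearman rho of 0.98 (permutation p = 1e-05 for each, the smallest that 100000 resamples can give, and 3e-05 after Benjamini-Hochberg adjustment over 6 relations). Without PO array 2 and ADI array 3, the arrays farthest from the median brightness, r was 0.95. Log2 Bmf had an r of 0.97 and a rho of 0.98, with the same permutation p and adjusted p, and an r of 0.96 without those 2 arrays. Subtracting the median did not remove the relation: centred Thap1 still had an r of 0.85 (permutation p = 3e-04, adjusted 4e-04) and a rho of 0.72 (permutation p = 0.001, adjusted 0.001), with an r of 0.54 without the same arrays. Centred Bmf had an r of 0.82 (permutation p = 7e-04, adjusted 7e-04) and a rho of 0.65 (permutation p = 0.004, adjusted 0.004), and 0.43 without them. The relation was computed for these 2 genes only, so it is not shown to be particular to them. The part of brightness in the differences between groups was not tested.

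**Figure D2:**
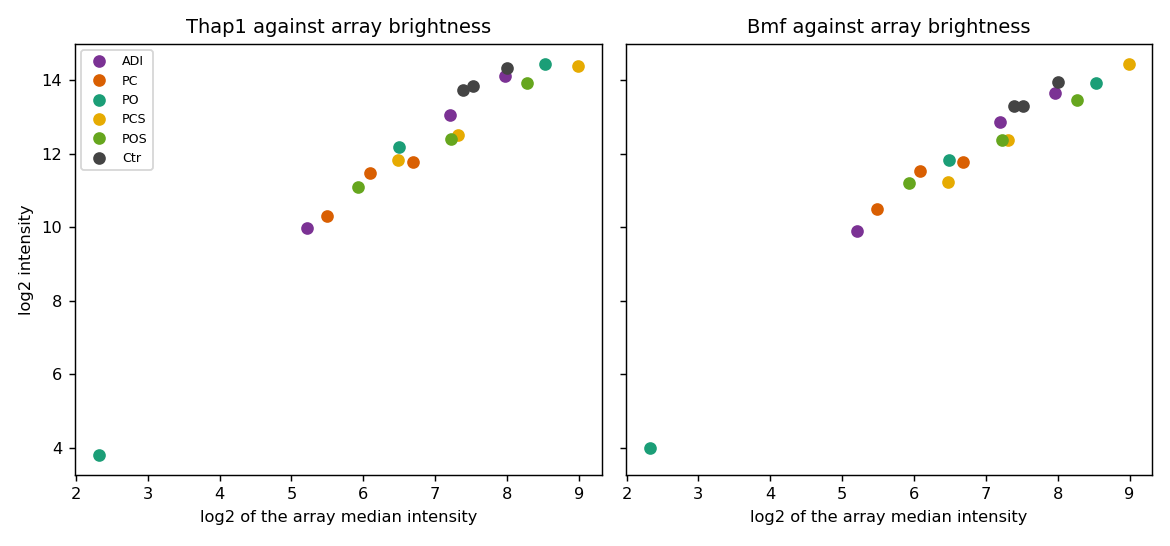
Log2 intensity of Thap1 (left) and Bmf (right) against the log2 median intensity of the same array, 1 point per array, coloured by group. Both genes lie near a line, with Ctr arrays at its upper edge and PO array 2 at the lower left, at 3.81 for Thap1.

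Relative to the array median, Thap1 was highest in Ctr mice. Centred Thap1 was 5.59 ± 0.73 for ADI mice, 5.09 ± 0.29 for PC, 4.37 ± 2.50 for PO, 5.32 ± 0.11 for PCS, 5.33 ± 0.27 for POS and 6.33 ± 0.006 for Ctr mice (log2 above the median, SD, n = 3 each). The highest of the 15 arrays of exposed mice was ADI array 1 at 6.13, and the lowest Ctr array stood at 6.32, so the exposed arrays all lay below the Ctr arrays. From low to high the group means ran PO, PC, PCS, POS, ADI and Ctr. Every step between neighbours in that order was smaller than the larger SD of the pair, apart from the step between ADI and Ctr, at 0.74 against an SD of 0.73. The low place of PO rested on PO array 2. Without that array the PO mean was 5.805 (n = 2), above the mean of every other exposed group.

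Centred Bmf showed the same gap to the Ctr arrays. It was 5.35 ± 0.57 for ADI mice, 5.18 ± 0.23 for PC, 4.14 ± 2.13 for PO, 5.09 ± 0.35 for PCS, 5.21 ± 0.07 for POS and 5.88 ± 0.10 for Ctr mice (log2 above the median, SD, n = 3 each). The highest exposed array was ADI array 1 at 5.69 and the lowest Ctr array was at 5.77. The order of its group means was PO, PCS, PC, POS, ADI and Ctr, and no step between neighbours exceeded the larger SD of the pair. Here too, without PO array 2 the PO mean was 5.364 (n = 2), above the mean of every other exposed group. Among all 5021 features, 2.03% had 15 exposed arrays all below the 3 Ctr arrays in centred values, and 0.299% had them all above. Group by group, all 3 exposed arrays were below the Ctr arrays for 9.66% of features with ADI, 15.7% with PC, 18.6% with PO, 13.2% with PCS and 15.2% with POS mice. As deposited, 11 of the 15 exposed arrays were below every Ctr array for each gene, and the share of features with as many was not counted. These counts over all exposed mice were made after the values were seen. The authors list both genes for low PC values against these same Ctr mice, so the gap is not independent of that choice. The counts also rest on the deposited Ctr intensities. The folds in the authors' deposited table, described last, correspond to a Ctr sum 0.19 (log2) lower for Thap1 and 0.17 lower for Bmf, and the lowest Ctr array lay 0.19 above ADI array 1 for Thap1 and 0.081 above it for Bmf. With every Ctr array lowered by that amount, 14 of 15 exposed arrays would lie below the Ctr arrays for Thap1 and 13 of 15 for Bmf. Only the sum is known, not how the lowering is divided over the 3 Ctr arrays, and an uneven division could leave fewer. Of the cell type markers, mean centred Apoa1 was lower than in Ctr in every exposed group, at -0.31 for ADI, -0.57 for PC, -1.58 for PO, -0.31 for PCS and -0.41 for POS. The PO value rested on PO array 2, at 1.68, while PO arrays 1 and 3, at 6.27 and 6.21, lay within the Ctr range. Mean centred Cd2 was higher, at 0.99 for ADI, 1.14 for PC, 1.32 for PO, 1.92 for PCS and 0.99 for POS. None of these differences passed the test in limma. The part of these markers in the differences of Thap1 and Bmf was not tested.

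**Figure D3:**
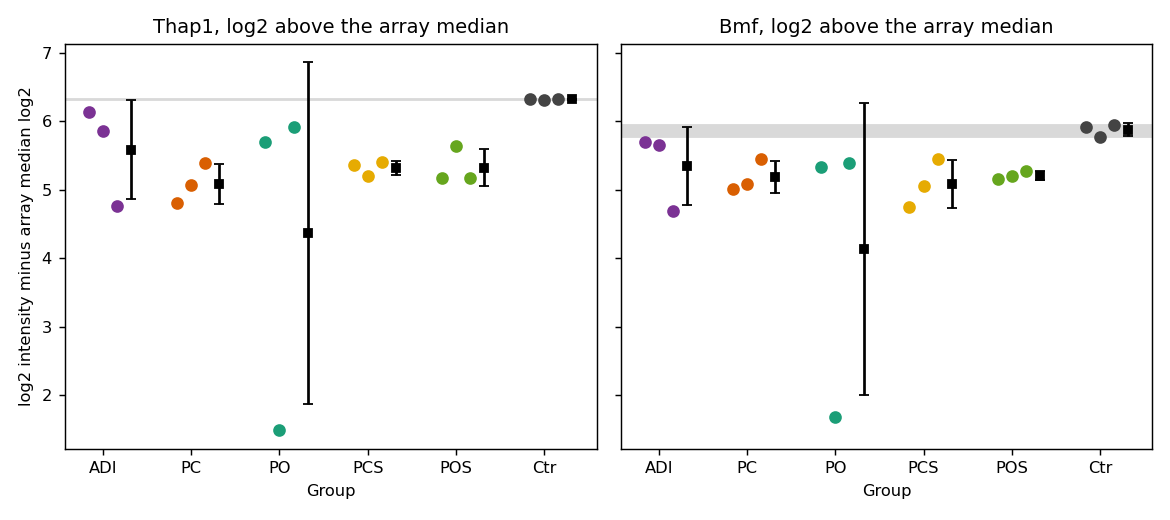
Centred log2 intensity of Thap1 (left) and Bmf (right) by group, with 1 circle per array, the mean and SD as squares with bars, and the Ctr range shaded. All 15 exposed arrays lie under the shaded range for both genes, and PO array 2 stands alone near the bottom.

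Exposed arrays brighter than the Ctr arrays, or near a Ctr array in brightness, were set beside them, as a description. PO array 3, PCS array 3 and POS array 2 had medians of 309 to 507, above the brightest Ctr array at 256. On them centred Thap1 was 5.40 to 5.91 and centred Bmf 5.20 to 5.46, below the Ctr minima of 6.32 and 5.77. The share of all features below their Ctr minima on these same arrays was not counted. The part of brightness in this gap was not tested. The closest match in brightness was ADI array 1 at 250 beside Ctr array 3 at 256, with log2 Thap1 at 14.10 against 14.32 and log2 Bmf at 13.66 against 13.95, the smallest gap of these pairs. ADI array 2, PCS array 2 and POS array 1 had medians of 147, 159 and 149, near but below the 168 of Ctr array 1. Log2 Thap1 on them was 13.06, 12.51 and 12.39, against 13.72 on Ctr array 1, and log2 Bmf was 12.86, 12.37 and 12.37, against 13.31.

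The rank of a feature among the 5021 features of its array does not depend on a scale factor. The mean percentile of Thap1 was 96.3 for ADI, 95.2 for PC, 92.5 for PO, 96.1 for PCS, 95.5 for POS and 98.1 for Ctr arrays. That of Bmf was 95.6 for ADI, 95.4 for PC, 92.5 for PO, 95.5 for PCS, 95.3 for POS and 97.1 for Ctr arrays. On PO array 2 they were at 82.9 and 84.6. By percentile 13 of 15 exposed arrays for Thap1 and 14 of 15 for Bmf were below every Ctr array. Of all features, 1.14% had 15 of 15, which neither gene reached. The share of features with 13 or 14 of 15 was not counted. Nor was the share with all 3 arrays of a group below the Ctr arrays by percentile. An exact permutation test (two-sided, 3 against 3, 10 tests) can give no p below 0.10. Thap1 reached that p in PC, PCS and POS mice and Bmf in PC, PO, PCS and POS mice (exact permutation p = 0.10, adjusted 0.14), and the remaining 3 tests gave 0.20 (adjusted 0.20, exact permutation). The percentile also followed brightness, with an r of 0.88 for each gene (permutation p = 3e-05 for Thap1 and 4e-05 for Bmf, adjusted 6e-05 for each) and 0.68 without PO array 2 and ADI array 3. Spearman's rho was 0.78 for Thap1 (permutation p = 2e-04, adjusted 4e-04) and 0.76 for Bmf (permutation p = 4e-04, adjusted 6e-04).

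The flour of conventional potatoes was the exposure for which the authors list both genes as lower. That listing was made on these same PC and Ctr mice. The ranks and tests of PC against Ctr, here and below, therefore describe the values and are not independent support for a difference. Mean log2 Thap1 was 11.18 ± 0.78 in PC mice and 13.96 ± 0.32 in Ctr mice (SD, n = 3 each), a difference of -2.78 (SE 1.82, 95% interval -6.57 to 1.00). Mean log2 Bmf was 11.27 ± 0.67 in PC and 13.52 ± 0.38 in Ctr mice (SD, n = 3 each), a difference of -2.25 (SE 1.74, interval -5.86 to 1.37). The median feature differed by -1.55, and by -0.90 in ADI, -1.98 in PO, -0.16 in PCS and -0.53 in POS mice. In centred values Thap1 was at -1.23 (interval -2.97 to 0.50) and Bmf at -0.70 (interval -2.20 to 0.80), and 2.25% of features were as low as Thap1 or lower and 11.4% as low as Bmf or lower. Neither gene passed the test, limma over all features with Benjamini-Hochberg adjustment, with an adjusted p of 0.559 for each as deposited and of 0.811 for Thap1 and 0.828 for Bmf in centred values. Limma called 0 of 5021 features (0%), with 41 at an unadjusted p under 0.05, and 0 in centred values, with 269.

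The test of PC against Ctr depended on which arrays set the error. In a limma fit of these 6 arrays alone both genes passed as deposited (adjusted p = 0.00656 for each), as did 70.1% of all features. In centred values of the same 6 arrays the adjusted p in limma was 0.055 for Thap1 and 0.143 for Bmf, and 0 features passed. Across all groups but without PO array 2, centred Thap1 was at -1.23 with an interval of -1.89 to -0.58 and centred Bmf at -0.70 with an interval of -1.29 to -0.11 (adjusted p in limma 0.213 for Thap1 and 0.30 for Bmf).

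The authors' table keeps a gene where the ratio to the Ctr mean was above 2 or below 0.5. In the deposited intensities all 3 PC mice were below 0.5 for both genes, at 0.0776, 0.214 and 0.176 times the Ctr mean for Thap1 and at 0.121, 0.290 and 0.247 for Bmf. The same held for 46.5% of all features, so that passing this rule as deposited was common in PC mice. After centring the ratios were 0.349, 0.420 and 0.523 for Thap1 and 0.549, 0.573 and 0.740 for Bmf, so 2 of 3 PC mice for Thap1 and 0 of 3 for Bmf were below 0.5, and 1.06% of features had all 3 below it.

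Fresh organic flour gave the lowest group means, and they rested on PO array 2. Mean log2 Thap1 was 10.15 ± 5.61 in PO mice, a difference from Ctr of -3.82 (SE 1.82), and Bmf was 9.92 ± 5.23, a difference of -3.60 (SE 1.74; SD, n = 3 each). Without PO array 2 the differences were -0.65 and -0.64, and without PO array 3 they were -5.97 and -5.61. Centred, Thap1 was at -1.96 and Bmf at -1.74, and without PO array 2 at -0.52 for each. The adjusted p in limma was 0.344 for both as deposited, and 0.194 for Thap1 and 0.183 for Bmf centred. Without PO array 3 both passed (adjusted p in limma 0.0269 for each), as did 58.5% of features. Limma called 0 features (0%) with all arrays, with 523 at an unadjusted p under 0.05 as deposited and 1039 centred.

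In mice given the pesticide mixture both genes spread widely. Mean log2 Thap1 was 12.38 ± 2.15 in ADI mice, a difference from Ctr of -1.59 (SE 1.82), and Bmf was 12.14 ± 1.98, a difference of -1.38 (SE 1.74; SD, n = 3 each). These values rested on ADI array 3, the dimmest of the group, without which they were -0.38 for Thap1 and -0.26 for Bmf. Cd2 was 4.42 above the median on ADI array 3, against 1.41 and 1.99 on ADI arrays 1 and 2. Without ADI array 1, Thap1 was at -2.45 and Bmf at -2.14. Centred, Thap1 was at -0.74, at -0.33 without ADI array 3, and Bmf at -0.53, at -0.21 without it. The adjusted p in limma was 0.889 for both as deposited and 1.00 for both centred. Limma called 0 features (0%), with 2 at an unadjusted p under 0.05 as deposited and 41 centred.

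Flour of stored potatoes was compared with water next. For stored conventional flour, mean log2 Thap1 was 12.91 ± 1.32 in PCS mice, a difference from Ctr of -1.05 (SE 1.82), and Bmf was 12.68 ± 1.63, a difference of -0.84 (SE 1.74; SD, n = 3 each). As deposited these moved with single arrays, to -1.79 and -1.72 without PCS array 3 and to -0.51 and -0.11 without PCS array 1. Centred, Thap1 was at -1.004, between -1.05 and -0.94 with any single array of these groups left out, and Bmf was at -0.79, between -0.98 and -0.62. Cd2, the T cell marker, was 4.67, 4.96 and 0.98 above the median in PCS mice, against 1.27 to 1.92 in Ctr mice. The adjusted p in limma was 1.00 for both as deposited and 0.887 for Thap1 and 0.895 for Bmf centred. Limma called 0 features (0%), with 50 at an unadjusted p under 0.05 as deposited and 231 centred.

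Stored organic flour gave a like centred difference for Thap1. Mean log2 Thap1 was 12.47 ± 1.41 in POS mice, a difference from Ctr of -1.50 (SE 1.82), and Bmf was 12.35 ± 1.13, a difference of -1.17 (SE 1.74; SD, n = 3 each). Without POS array 3, the mouse labelled day 27, the differences were -0.82 and -0.60, and without POS array 2 Thap1 was at -2.22 and Bmf at -1.73. Centred, Thap1 was at -1.0001 and Bmf at -0.67, and the day 27 mouse had centred values of 5.17 for Thap1 and 5.28 for Bmf, against 5.17 and 5.64 for Thap1 and 5.15 and 5.20 for Bmf in POS mice 1 and 2. The adjusted p in limma was 0.999 for both as deposited, and 0.919 for Thap1 and 0.945 for Bmf centred. Limma called 0 features (0%), with 17 at an unadjusted p under 0.05 as deposited and 237 centred. All 5 comparisons share the same Ctr mice, so their values are not independent of each other.

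**Figure D4:**
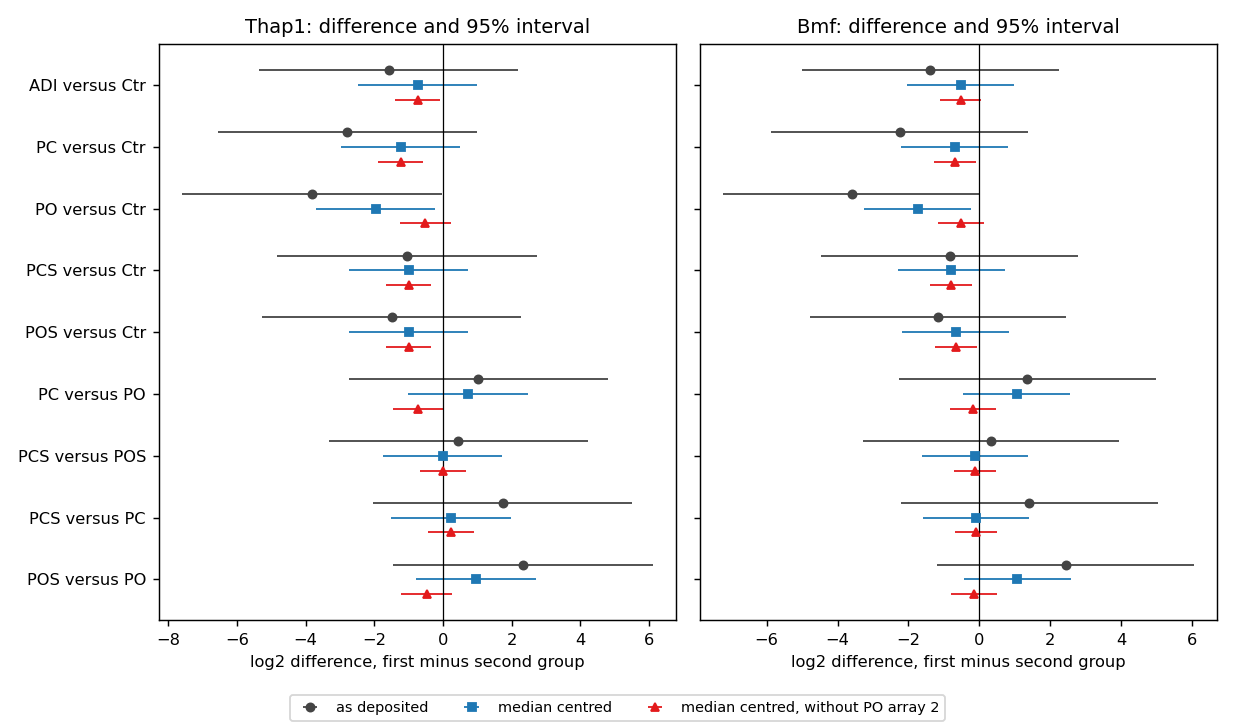
Log2 difference of Thap1 (left) and Bmf (right) in each comparison, first minus second group, with the 95% interval from limma, as deposited, median centred, and median centred without PO array 2. All points against Ctr lie below 0, with PC at -2.78 for Thap1 and -2.25 for Bmf as deposited, and the intervals narrow once PO array 2 is left out.

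Neither gene passed the test between exposed groups. The cultivation system without storage, PC against PO, gave 1.03 (SE 1.82) for Thap1 and 1.35 (SE 1.74) for Bmf, and these turned to -2.14 and -1.61 without PO array 2. Under storage, PCS against POS gave 0.45 (SE 1.82) for Thap1 and 0.33 (SE 1.74) for Bmf as deposited. Centred, the same contrast was -0.004 for Thap1 (interval -1.74 to 1.73) and -0.12 for Bmf (interval -1.62 to 1.38). The adjusted p in limma was 1.00 for each as deposited, and limma called 0 features (0%) in either comparison, with 11 and 2 at an unadjusted p under 0.05 as deposited and 752 and 15 centred.

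Storage was compared within each cultivation system. PCS against PC gave 1.73 (SE 1.82) for Thap1 and 1.41 (SE 1.74) for Bmf as deposited, where the median feature was 1.38 higher. Centred, Thap1 was at 0.23 (interval -1.50 to 1.96) and Bmf at -0.09 (interval -1.59 to 1.41). POS against PO gave 2.32 (SE 1.82) for Thap1 and 2.43 (SE 1.74) for Bmf, and -0.85 and -0.53 without PO array 2. The adjusted p in limma was 0.567 for both genes in the first comparison and 0.593 in the second, and limma called 0 features (0%) in each, with 38 and 71 at an unadjusted p under 0.05 as deposited and 24 and 566 centred. A test of any difference among the 6 groups called 0 features (0%, limma F test), with 12 at an unadjusted p under 0.05 as deposited and 345 centred, and gave an adjusted p of 0.910 for both genes.

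The 2 genes were also compared with each other. Over 18 arrays their centred values had a Pearson r of 0.97, and over the 17 arrays without PO array 2 an r of 0.88. For comparison, the median feature had an r of 0.16 with Thap1 over 18 arrays, and 11 of 5020 features were more like Thap1 than Bmf was and 36 more like Bmf than Thap1 was. Without PO array 2 these counts were 36 and 90. In PC mice the Thap1 difference from Ctr minus that of Bmf was -0.54 (log2), with the Thap1 to Bmf ratio of all 3 PC mice below that of every Ctr mouse. The same quantity was -0.21 in ADI, -0.21 in PO, -0.21 in PCS and -0.33 in POS mice. In each of these groups 2 of 3 mice had a ratio below that of every Ctr mouse. An exact permutation test gave p = 0.10 for PC, the smallest possible, and 0.30 to 0.40 for the others, with an adjusted p of 0.40 for all 5, so none passed, and the groups were not tested against each other. How many other pairs of features have a ratio that separates PC from Ctr mice was not counted.

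Among the 41 other named genes with a value on every array, those most like Thap1 in centred values over the 18 arrays were Acat3, an acetyl-CoA acetyltransferase (r = 0.98), Alkbh2, a DNA repair dioxygenase (r = 0.97), and Chd3, a helicase of the NuRD complex (r = 0.97). Without PO array 2 these were 0.91, 0.87 and 0.89. Most like Bmf were Nat2, an arylamine acetyltransferase (r = 0.99), Bmp7, a bone morphogenetic protein (r = 0.99), and Pde4b, a cAMP phosphodiesterase (r = 0.98), with 0.95, 0.93 and 0.94 without PO array 2. All arrays share their brightness among these features, and the authors chose the named genes on these samples.

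The lists of related genes could hardly be followed. Of 56 apoptosis genes on a fixed list the files name 2, Bmf and Plscr1, a phospholipid scramblase, and of 18 genes of the THAP family and its partners they name only Thap1. Plscr1 lies on a feature with a blank cell, where the array behind each value is uncertain, so its levels were not compared.

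In the authors' deposited table Thap1 and Bmf carry a value in PC mice only. The authors' deposited table gives log2 fold changes of -2.66, -2.04 and -2.32 for Thap1 (mean -2.34) and of -2.12, -1.62 and -1.85 for Bmf (mean -1.86) in PC mice 1, 2 and 3. From the deposited intensities the same ratios are -3.69, -2.23 and -2.51 for Thap1 and -3.04, -1.79 and -2.02 for Bmf. PC mouse 1 thus differs most between the 2 tables, by 1.03 for Thap1 and 0.92 for Bmf, and mice 2 and 3 differ by 0.19 for Thap1 and 0.17 for Bmf. In the other groups the authors' deposited table lists 0, where by the intensities 1 ADI mouse and 2 mice each of PO, PCS and POS were below 0.5 times the Ctr mean for either gene, and none was above 2 times.

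The folds of the authors' deposited table can be turned back into whole numbers. With the deposited intensities of PC mice 2 and 3, the folds of each mouse give the same sum of the 3 Ctr intensities, whole to within 0.01: 42716 for Thap1 and 32057 for Bmf. The deposited Ctr intensities sum to 48716 for Thap1 and 36057 for Bmf, so that the sums from the table lie at -6000 and -4000 relative to them. With the sums from the table, the fold of PC mouse 1 corresponds to an intensity of 2260 for Thap1 and 2457 for Bmf, where the deposited intensities are 1260 and 1457. The values behind the folds of PC mouse 1 are thus exactly 1000 above the deposited ones for both genes. By either table all 3 PC mice are below 0.5 times the Ctr mean.

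**Figure D5:**
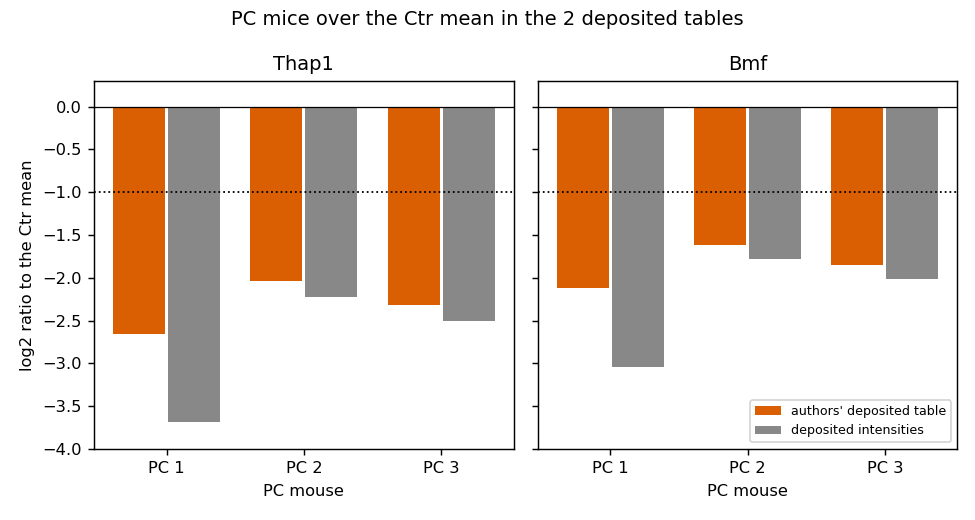
Log2 ratio of each PC mouse to the Ctr mean for Thap1 (left) and Bmf (right), in the authors' deposited table and from the deposited intensities, with 0.5 times the Ctr mean as a dotted line. All bars pass the line, and the tables differ most in PC mouse 1, by 1.03 for Thap1 and 0.92 for Bmf.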

How the data were processed

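Labelled RNA of 18 mice was hybridised to 1-colour Agilent arrays that the authors read with Agilent Feature Extraction, per the submitters' processing notes. No source used here gives its version, the signal column, any background step or how features were selected. Intensity values as deposited are whole numbers on a linear scale and show no scaling between arrays. The second table, also deposited by the authors, has a log2 fold per mouse, set to 0 between 0.5 and 2 times the Ctr mean, per the file headers.

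Here 1893 rows with a blank cell were left out, a choice made after seeing the data, values were set to at least 1 and log2 transformed, and limma 3.58.1 (R 4.3.3) was fitted with a mean for each of 6 groups, without scaling and, beside it, with each array centred on its median. Adjustment was over 5021 features at 0.05, for 9 comparisons and an F test. Named are Thap1, Bmf, the 3 named genes most like each in centred values, and list members that the files name. Plscr1, Apoa1 and Cd2 come from those lists. Further settings are in the closing section. The fit was tested on simulated data. Deviations from group means of same-numbered arrays were correlated across features. They correlated over 0.1 in all 3 pairs for ADI and Ctr (0.41, 0.52 and 0.31) and in no other comparison in all 3. For POS and PO all 3 were negative (-0.31, -0.56 and -0.37), and 11 of the 27 pairs of all comparisons were over 0.1. The number was tried as a pairing for ADI and Ctr, from the data and not from the labels. These correlations do not show that the arrays were paired. Figures used Python 3.11.15 with matplotlib 3.10.9. The genes and lists were chosen with earlier results of these data known. The number of arrays limits the precision.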

Additional observations from a re-analysis of the deposited data

How the results depend on the processing

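Against Ctr, Thap1 and Bmf kept their direction in all 260 values, over 5 comparisons with 26 settings each, and passed the threshold in 6: for both genes in PC mice with only these groups fitted, with and without a replicate block, and in PO mice without PO array 3. Many of the 260 values repeat each other. Thap1 in PC mice, for example, stayed at -2.78 with only the groups compared and with the replicate block. All comparisons also share the same Ctr arrays. The share of all features that keep 1 direction was not counted. Counts of called features left 0 when only the groups compared were fitted, to 1 in ADI, 3519 in PC, 1 in PCS and 11 in POS mice against Ctr, and 1 for PCS against PC. Leaving out single arrays, as deposited or centred, gave 0 to 1 features in ADI, PC, PCS and POS mice against Ctr, 0 to 2936 in PO mice against Ctr, 0 to 3 for PC against PO and 0 to 1 for POS against PO.

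Between exposed groups no value of either gene passed and several turned sign. PC against PO turned to -0.65 (Thap1) and -0.29 (Bmf) under cyclic loess, and to -0.71 and -0.18 in centred arrays without PO array 2. POS against PO turned to -0.37 (Thap1) and -0.23 (Bmf) under cyclic loess and to -0.48 and -0.155 in centred arrays without PO array 2. PCS against POS turned to -0.0041 (Thap1) and -0.12 (Bmf) with median centring, in all groups, in these 2 alone with or without a block, and without PO array 2, and Bmf to -0.053 with 75th percentile centring. PCS against PC turned for Bmf to -0.094 with median centring, likewise in all these fits, and to -0.061 with 75th percentile centring. With single arrays left out as deposited, PC against PO ran from -2.14 to 3.18 (Thap1) and -1.61 to 3.36 (Bmf). PCS against POS ran from -0.29 to 1.17 and -0.55 to 1.06, and POS against PO from -0.85 to 4.47 and -0.53 to 4.44. PCS against PC for Bmf did not turn as deposited, at 0.53 to 2.14. In centred values with single arrays left out it ran from -0.28 to 0.075. Leaving out PO array 2 turned PC against PO and POS against PO. For the other turns the cause was not tested.

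Cyclic loess, centring with only the groups compared or without PO array 2, and centring with single arrays left out were chosen after seeing the data. The block with only the groups compared was added then too. With the replicate number as a block over all groups, Thap1 was at -2.78 in PC mice against Ctr (adjusted p in limma 0.599), and the block changed no call. With the block and only the groups compared, 3705 features were called in PC, 5 in PCS mice against Ctr and 3 for PCS against PC, and 76 in PC mice after centring. For ADI against Ctr, where all 3 same-numbered pairs correlated over 0.1, that fit called 0, with 31 at an unadjusted p under 0.05. It gave both genes an adjusted p in limma of 0.764 (0.705 centred). In the other comparisons not every pair correlated over 0.1. Ranking all features instead of complete rows changed no percentile call or direction, but moved the PO difference to -12.9 for Thap1, against -5.54, and to -12.3 for Bmf, against -4.67. In centred values the standard error of Thap1 in PC mice against Ctr was 0.31 without PO array 2 and 0.81 with it.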

Other observations

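The whole-number pattern found for Thap1 and Bmf also holds for other genes of the authors' deposited table. Of 27 genes listed there for PC mice, 14 give a whole sum of Ctr intensities that is the same from PC mice 2 and 3, to within 0.01. All 14 are among the 21 genes on complete rows, and 0 of the 6 on rows with a blank cell do so. The fold of PC mouse 1 then corresponds to an intensity above the deposited one by exactly 1000 in 11 of the 14, and by a multiple of 500 in all 14. The implied Ctr sum differs from the deposited one by a multiple of 1000 in 12, by -700 for Glcci1, and not at all for H2al2b. For Nyap1 the implied Ctr sum lay 6000 above the deposited one, the only offset upward, and the value of PC mouse 1 lay 2000 above. Glcci1, H2al2b and Nyap1 are named here because their values stood apart from those of the other genes.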
